A study of Mus musculus with 6 samples.

Results

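The immunoproteasome and peptide loading genes are 10 genes whose products cut proteins into peptides and place those peptides on MHC class I molecules. They were Psmb8, Psmb9, Psmb10, Psme1, Psme2, Tap1, Tap2, Tapbp, Tapbpl and Erap1, 10 of 19938 genes measured. The set was built around 3 of them, Erap1, Psmb10 and Tapbpl, which had passed a test for lower values in VPA than in control arrays. That contrast therefore chose the genes, and their differences in it are given as a description with no test. Each gene was read from 1 probe set, annotated with exactly 1 symbol, and none of the 10 had a second such probe set.

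The 3 VPA samples, titled as prostate cancer cells of the mouse given valproic acid (VPA), a drug against epilepsy that inhibits class I histone deacetylases, were set against 3 control samples of such cells, each on its own Affymetrix mouse Gene 1.0 ST array. The other label fields disagree with the titles: they call the VPA samples undifferentiated embryonic stem cells of strain Stra8-EGFP/Rosa26 and the control samples differentiated embryonic stem cells of strain 129SV, so that treatment, strain and differentiation follow one division of the samples and cannot be told apart if those fields hold. No source used here gives the dose, the duration, the cell line or details of the named allele, and the labels call the replicates biological without saying whether cultures were separate. Values are on the log2 scale, array medians ran from 7.15 to 7.18, and 3 arrays per group limit the precision (the median standard error of a difference was 0.101).

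The labelled cell type was checked against defining markers, although these values carry no detection call. Of 8 listed luminal prostate epithelium markers 6 were measured, and their log2 values lay between 5.79 and 8.04 in all arrays. None of the 6 passed the test between the groups. Their summed level lay between 9.55 and 9.635 in VPA arrays and between 9.507 and 9.729 in control arrays. Epcam, at the lower end of the range of single values, had 6.10, 6.14 and 6.17 in VPA and 5.82, 5.79 and 5.91 in control arrays. Fibroblast markers lay between 7.82 and 14.13, the highest being Dcn, which encodes the matrix proteoglycan decorin. Basal epithelium markers lay between 6.05 and 6.88, and endothelium markers between 5.85 and 9.50. Of 5 fibroblast markers 1, Thy1, rose (0.99, limma adjusted p = 0.00973), and of 4 basal epithelium and 4 endothelium markers none passed. Leukocytes express the immunoproteasome constitutively, and of 10 listed leukocyte markers 9 were measured, none of which passed the test between the groups. Their summed level lay between 9.61 and 10.01 on the log2 scale in VPA arrays and between 9.76 and 9.97 in control arrays. The common leukocyte antigen gene Ptprc lay between 5.31 and 5.64 in VPA arrays and between 5.65 and 5.80 in control arrays, and the part of leukocyte RNA in the differences below was not tested. Of 6 embryonic stem cell markers none passed, and Sox2, which neural and some epithelial cells also express, was the highest of them at 10.98, 11.25 and 11.53 in VPA and 11.53, 11.48 and 11.71 in control arrays. The lowest value among the 6 was 4.13. Their summed level lay between 11.16 and 11.66 in VPA arrays and between 11.62 and 11.85 in control arrays, Sox2 included. Fewer cells of a type and less RNA per cell cannot be told apart in these bulk samples.

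In the proteasome, a barrel of alpha and beta rings, 3 beta subunits cut proteins. In immune cells, and in other cells exposed to interferon-gamma, the subunits of Psmb8, Psmb9 and Psmb10 take the place of those of Psmb5, Psmb6 and Psmb7, which gives the immunoproteasome, and the PA28 ring of Psme1 and Psme2 products opens its ends. The TAP transporter, a pair of Tap1 and Tap2 products, carries peptides into the endoplasmic reticulum, where the aminopeptidase Erap1 trims them and tapasin, the product of Tapbp, and its relative from Tapbpl select those that bind class I molecules well.

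Promoter windows, from 250 bases before to 50 bases from the transcription start on, came from RefSeq (build GRCm38.p6) and matched 8 of the 10 genes, Tap2 and Tapbpl being the others. They are shown for 4 genes because members that share a window or a motif can then be set side by side. The interferon-stimulated response element was searched as GAAANNGAAA, the gamma-activated site as TTCNNNGAA or TTCNNNNGAA, the CCAAT box as CCAAT and the GC box as GGGCGG, each on both strands. Capitals mark the response element in Erap1 and Psme1, the gamma-activated pattern in Psmb10, and the CCAAT box and the GC box in Tap1. Erap1 is at chr13:74639603-74639902 on the plus strand, Psme1 at chr14:55578244-55578543 on the plus strand, Psmb10 at chr8:105938343-105938642 on the minus strand and Tap1 at chr17:34187306-34187605 on the plus strand.
Erap1: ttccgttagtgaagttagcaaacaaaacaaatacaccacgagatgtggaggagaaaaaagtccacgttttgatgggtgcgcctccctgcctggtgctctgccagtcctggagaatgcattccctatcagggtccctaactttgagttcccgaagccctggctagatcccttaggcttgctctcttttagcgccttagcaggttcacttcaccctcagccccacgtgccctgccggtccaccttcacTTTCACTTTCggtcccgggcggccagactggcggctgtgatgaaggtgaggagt
Psme1: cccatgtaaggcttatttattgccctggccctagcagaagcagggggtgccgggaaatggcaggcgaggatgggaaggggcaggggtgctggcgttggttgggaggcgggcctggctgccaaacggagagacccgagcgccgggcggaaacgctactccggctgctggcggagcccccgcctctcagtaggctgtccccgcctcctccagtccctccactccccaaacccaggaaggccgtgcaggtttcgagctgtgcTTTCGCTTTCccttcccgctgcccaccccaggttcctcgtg
Psmb10: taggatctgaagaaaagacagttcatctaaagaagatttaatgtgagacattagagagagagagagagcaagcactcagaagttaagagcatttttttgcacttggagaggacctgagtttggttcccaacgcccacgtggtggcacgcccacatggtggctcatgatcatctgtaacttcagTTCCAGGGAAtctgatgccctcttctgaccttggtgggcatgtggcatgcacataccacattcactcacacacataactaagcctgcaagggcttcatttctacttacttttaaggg
Tap1: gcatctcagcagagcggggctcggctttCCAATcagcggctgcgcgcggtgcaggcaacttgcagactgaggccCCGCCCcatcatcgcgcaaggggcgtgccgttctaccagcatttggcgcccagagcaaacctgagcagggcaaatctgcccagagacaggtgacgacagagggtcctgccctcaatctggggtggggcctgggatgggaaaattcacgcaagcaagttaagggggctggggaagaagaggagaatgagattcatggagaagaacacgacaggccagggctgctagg

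The response element pattern was found in 2 of the 8 genes with a window, Erap1, starting at base -4, and Psme1, starting at base 10, counted from the transcription start as base 1 with no base 0. It occurred in 3.44% of 32851 mouse promoter windows of the same length. The gamma-activated pattern with a 4-base spacer was found in Psmb10 at base -67 (6.95% of windows) and that with a 3-base spacer in Psmb8 at base -97 (8.3% of windows). A CCAAT box was found in Tap1, Psmb9 and Tapbp and a GC box in 6 genes, against 37.4% and 35.7% of windows. The windows of Tap1 and Psmb9 share 275 bases, because these genes start 226 bases apart and run in opposite directions, so both hold the same CCAAT box and GC box. These matches describe letters in the windows and are not measured binding sites.

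Across the 10 genes, 9 had a lower mean in VPA than in control arrays, against 58.6% of all genes, and the median difference was -0.32, against -0.035 over all genes. The groups did not overlap, with every VPA value below every control value, in 5 genes, against 12% of all genes. Of the 10 genes 3 had been called lower at an adjusted p under 0.05, the rule of the choice, against 0.632% of all genes. These counts come from the contrast that chose the set. Each of the 3 had an adjusted p of 0.0139 in limma's moderated test, and the nearest gene outside the threshold, Psmb8, had 0.0611. The plot of values by array shows the spread of sizes, from a clear gap between groups in Tapbpl to complete overlap in Psme2.

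**Figure D1:**
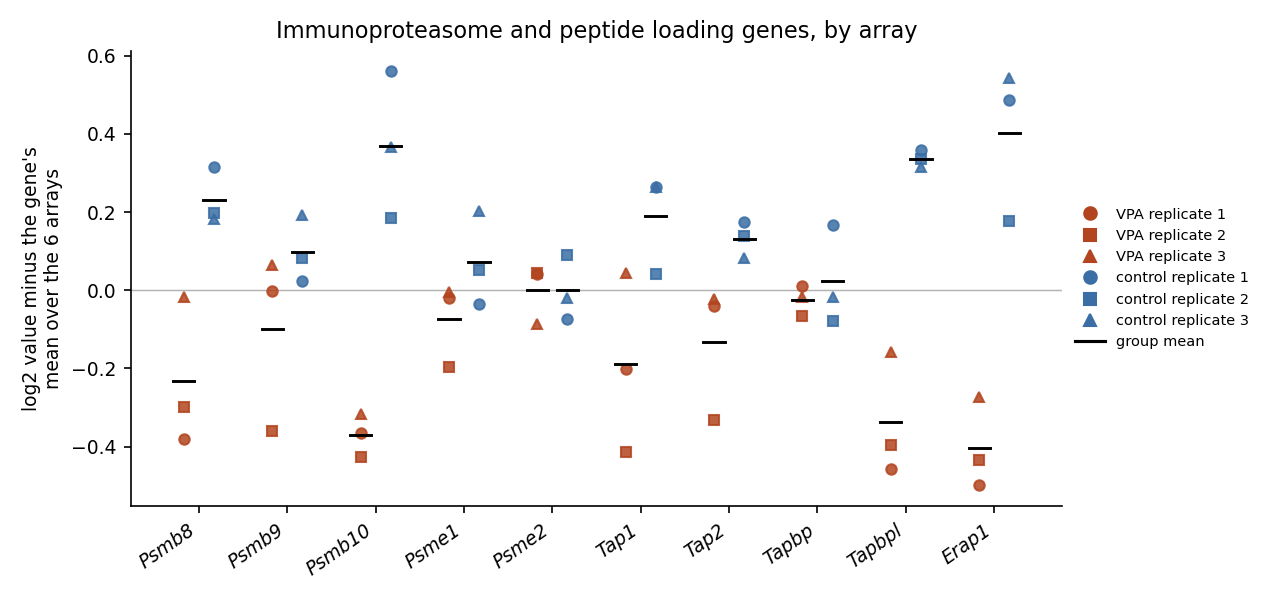
Log2 value of each of the 10 genes minus that gene's mean over the 6 arrays (y axis), with VPA arrays on the left of each gene and control arrays on the right, 1 point per array and bars at the group means. All VPA points lie below all control points in Psmb8, Psmb10, Tap2, Tapbpl and Erap1, and the groups overlap in the other 5 genes.

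Among the catalytic subunits, Psmb10, which encodes the trypsin-like subunit beta2i (MECL-1), had log2 values of 7.67, 7.61 and 7.72 in VPA replicates 1, 2 and 3, against 8.60, 8.22 and 8.41 in control replicates 1, 2 and 3. The VPA values spanned 0.111 and all lay below the lowest control value. The Psmb10 difference was -0.74 (SE 0.106, n = 3 per group), or 0.598 times the control level. Psmb8, which encodes the chymotrypsin-like subunit beta5i (LMP7), had 8.92, 9.01 and 9.29 in VPA and 9.62, 9.50 and 9.49 in control arrays. Here too the groups were apart, but VPA replicate 3 came within 0.199 of the lowest control value. Its difference was -0.46 (SE 0.109), or 0.725 times the control level. Psmb9, which encodes beta1i (LMP2), had 9.31, 8.95 and 9.38 in VPA and 9.34, 9.39 and 9.50 in control arrays, with overlapping groups and VPA replicate 2 alone well below the rest. The Psmb9 difference was -0.20 (SE 0.12), and without VPA replicate 2 it was -0.0676.

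The constitutive partners that these subunits replace were not used in the choice and were tested. Psmb7, the partner of Psmb10, averaged 11.40 ± 0.09 in VPA and 11.47 ± 0.05 in control arrays (SD, n = 3 each), a difference of -0.08 (SE 0.0867, limma adjusted p = 0.673). Psmb5, the partner of Psmb8, averaged 8.826 ± 0.103 in VPA and 8.998 ± 0.142 in control arrays, a difference of -0.17 (SE 0.101, limma adjusted p = 0.403). For Psmb6, the partner of Psmb9, the means were 10.20 ± 0.18 in VPA and 10.32 ± 0.07 in control arrays, with a difference of -0.11 (SE 0.106, limma adjusted p = 0.6). None of the 3 passed, and in each the groups overlapped. With all 6 arrays the inducible gene of each pair had the more negative difference, by the most between Psmb10 and Psmb7. Without VPA replicate 2 the order of Psmb9 and Psmb6 was the opposite, at -0.0676 and -0.1039. No test was made of these orders because the inducible genes were chosen on the contrast.

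Over all 14 constitutive subunits of the 20S core limma called none higher and none lower, beside 2.34% of all genes called, and 2 were lower at an unadjusted p under 0.05, against 8.3% of all genes. Their median difference was -0.14, with a range from -0.25 to 0.03, and 13 of 14 lay below 0, against 58.6% of all genes. The smallest p-values belonged to Psma1, an alpha ring subunit, at -0.25 (SE 0.109, limma adjusted p = 0.27), and Psmb4, a non-catalytic beta subunit, at -0.23 (SE 0.0996, limma adjusted p = 0.272).

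**Figure D2:**
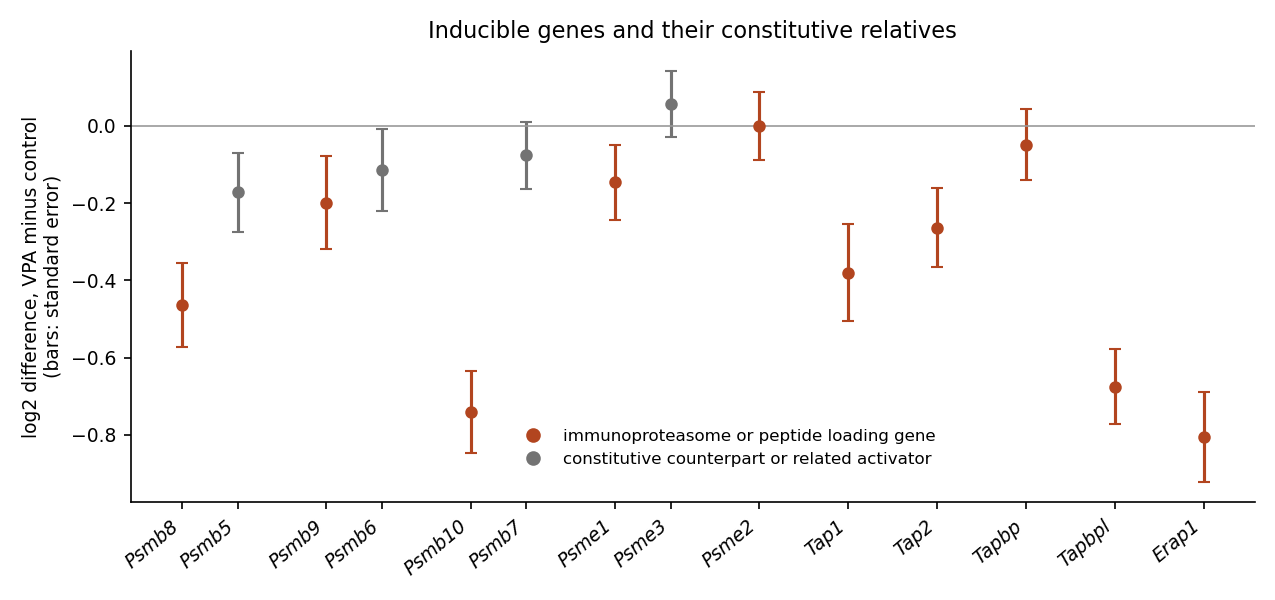
Log2 difference, VPA minus control (y axis), with its standard error as bars, for the 10 genes (orange) and for constitutive or related genes (grey) placed to the right of their partners. Psmb10 at -0.74 lies far below Psmb7 at -0.08, whereas Psmb9 at -0.20 and Psmb6 at -0.11 have overlapping bars.

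The PA28 activator genes showed little difference. Psme1, which encodes PA28 alpha, had 10.77, 10.60 and 10.79 in VPA and 10.76, 10.84 and 10.995 in control arrays, a difference of -0.15 (SE 0.098) with overlapping groups. Psme2, which encodes PA28 beta, had 9.90, 9.91 and 9.78 in VPA and 9.79, 9.95 and 9.84 in control arrays, and its means were the same to 2 decimals at 9.86 (SE of the difference 0.0878). Psme1 and Erap1 both hold the response element pattern shown above, and their differences were -0.15 and -0.81. Psme3, which encodes the nuclear relative PA28 gamma and was not used in the choice, differed by 0.06 (SE 0.0852, limma adjusted p = 0.761). Among 8 other activators, assembly factors and inhibitors of the proteasome limma called none, beside the same 2.34% of all genes, and 0 had an unadjusted p under 0.05, against 18.1% of all genes. Those with the smallest p-values were the assembly chaperone genes Psmg4 at -0.21 (SE 0.0935, limma adjusted p = 0.281) and Psmg2 at 0.15 (SE 0.087, limma adjusted p = 0.394), which pointed in opposite directions.

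Both chains of the TAP transporter were lower on average. Tap1 had 9.757, 9.543 and 10.001 in VPA and 10.222, 9.998 and 10.221 in control arrays, so that VPA replicate 3 and control replicate 2 were level and all other arrays were apart. The Tap1 difference was -0.38 (SE 0.125), or 0.769 times the control level. Tap2 had 9.49, 9.20 and 9.51 in VPA and 9.71, 9.67 and 9.61 in control arrays, without overlap and with VPA replicate 2 lowest. Its difference was -0.26 (SE 0.102), or 0.833 times the control level. Psmb9, which shares its start region with Tap1, differed by -0.20, and in both genes VPA replicate 2 was the lowest of the 6 arrays. That array was also the lowest of the 6 in Tap2, Psmb10 and Psme1, so this was not particular to the pair. Of 12 other measured ABCB and ABCC transporter genes limma called none, beside 2.34% of all genes called, and at an unadjusted p under 0.05 it had 1 lower and 1 higher, against 8.3% and 9.82% of all genes, with a median difference of 0.01. The smallest p-values were those of Abcb8, a mitochondrial transporter gene, at -0.29 (SE 0.0909, limma adjusted p = 0.14), and of Abcc5, an exporter of organic anions, at 0.34 (SE 0.129, limma adjusted p = 0.198).

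Tapasin and its relative differed in size. Tapbp had 11.46, 11.38 and 11.43 in VPA and 11.61, 11.37 and 11.43 in control arrays, and the groups overlapped, with a difference of -0.05 (SE 0.0919). Tapbpl, which encodes TAPBPR, a peptide editor that acts outside the loading complex, had 7.11, 7.17 and 7.41 in VPA and 7.93, 7.91 and 7.88 in control arrays. The Tapbpl controls spanned 0.044 and every VPA value was below them. Its difference was -0.67 (SE 0.0975), or 0.627 times the control level.

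Erap1 had the most negative difference of the 10. It had 8.64, 8.71 and 8.87 in VPA and 9.63, 9.32 and 9.68 in control arrays, with a gap between the groups and control replicate 2 as the lowest control. The Erap1 difference was -0.81 (SE 0.115), or 0.572 times the control level. Of 14 other measured peptidases, which cut peptides in the cytosol or belong to the same M1 family, limma called none, beside 2.34% of all genes called, with 2 higher at an unadjusted p under 0.05 (9.82% of all genes) and a median difference of 0.06. Lta4h, an M1 family enzyme that also makes leukotriene B4, had the smallest p-value, at 8.98, 9.20 and 8.98 in VPA and 8.67, 8.66 and 8.59 in control arrays, a difference of 0.42 (SE 0.0918, limma adjusted p = 0.0518). With the group as the sole term it passed with low values left out, at 0.037, and with a trended and robust prior, at 0.0388. Lap3, a cytosolic leucine aminopeptidase, differed by 0.27 (SE 0.104, limma adjusted p = 0.218).

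The arrays contributed unequally. In 8 of the 10 genes VPA replicate 3 was the highest VPA array, against 47.1% of all genes with a negative difference. Relative to each gene's mean over the 6 arrays, the median of the 10 genes was -0.12, -0.35 and -0.02 in VPA replicates 1, 2 and 3 and 0.22, 0.11 and 0.20 in control replicates 1, 2 and 3. Control replicate 2 was the lowest control in 4 genes, against 50.2% of all genes with a negative difference. When any 1 array was left out, the differences stayed between -0.92 and -0.73 for Erap1, between -0.83 and -0.65 for Psmb10, between -0.76 and -0.61 for Tapbpl and between -0.57 and -0.39 for Psmb8. Tap1 ranged from -0.50 to -0.27, Tap2 from -0.32 to -0.16 and Psme1 from -0.20 to -0.08, whereas Tapbp ranged from -0.10 to 0.02 and Psme2 from -0.04 to 0.05, with both signs.

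The class I molecules that receive the peptides showed no call with the group as the sole term. Of 12 measured class I molecules and chaperones limma called none, beside 2.34% of all genes called, with 1 higher at an unadjusted p under 0.05 (9.82% of all genes) and a median difference of 0.01. The classical genes H2-K1 and H2-D1, along with H2-T22, H2-T23 and H2-Q7, had no single-symbol probe set and are not analysed here. B2m, the light chain of class I molecules, had 13.73, 13.75 and 13.75 in VPA and 13.73, 13.62 and 13.73 in control arrays, a difference of 0.05 (SE 0.0807, limma adjusted p = 0.786). Mr1, which presents vitamin B metabolites to mucosal-associated T cells, had 11.98, 11.95 and 11.78 in VPA and 11.12, 11.71 and 11.31 in control arrays. Its groups did not overlap, but its difference of 0.52 (SE 0.144, limma adjusted p = 0.097) did not pass with the group as the sole term, and under that model it passed without control replicate 2 at 0.69 (limma adjusted p = 0.0207). H2-M3, which presents formylated peptides, differed by -0.13 (SE 0.104, limma adjusted p = 0.546).

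Class II presentation genes include H2-DMa, a chain of the chaperone that loads class II molecules, which rose. It had 7.53, 7.37 and 7.25 in VPA and 6.80, 6.89 and 6.87 in control arrays, a difference of 0.53 (SE 0.0954, limma adjusted p = 0.0269), or 1.44-fold. Among 11 measured class II genes 1 rose, 10 did not pass and none fell, beside 1.71% of all genes called higher. At an unadjusted p under 0.05 limma had 5 of them higher and 0 lower, against 9.82% and 8.3% of all genes. This list, too, was chosen with earlier results of these data known. H2-DMa lost its call without VPA replicate 1, VPA replicate 2, control replicate 1 or control replicate 3, at a limma adjusted p of 0.104, 0.0975, 0.117 or 0.0842.

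On chromosome 17 the order of tested genes is Brd2, H2-DMa, Psmb9, Tap1, Psmb8, Tap2, H2-Ob and H2-Ab1, so the 4 antigen-processing genes stand in one block between class II genes. The block's differences were -0.20, -0.38, -0.46 and -0.26, beside the rise of H2-DMa on one side. H2-Ab1, a class II beta chain gene on the other side, had 7.19, 6.42 and 6.26 in VPA and 5.73, 5.77 and 6.02 in control arrays. Its difference of 0.78 (SE 0.211, limma adjusted p = 0.0914) did not pass, and VPA replicate 1 stood well above the other 2 VPA arrays. H2-Ob, the nearer gene on that side, differed by -0.08 (SE 0.128, limma adjusted p = 0.773), and Brd2, a bromodomain protein that reads acetylated histones, differed by -0.30 (SE 0.0968, limma adjusted p = 0.143). Brd2, H2-Ob and H2-Ab1 were named after their values were seen, because they flank the block.

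**Figure D3:**
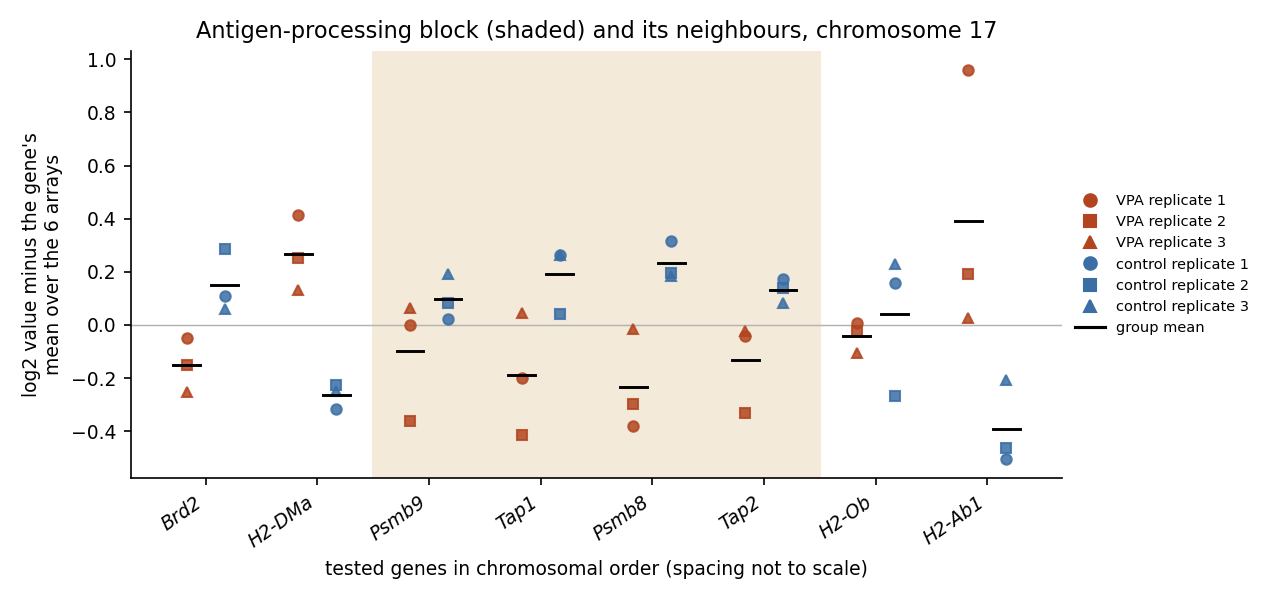
Log2 value minus the gene's mean over the 6 arrays (y axis) for tested genes in their order on chromosome 17 (x axis, spacing not to scale), VPA arrays left and control arrays right of each gene, bars at group means. In the shaded block the VPA means lie below the control means, at H2-DMa and H2-Ab1 all VPA points lie above all control points, and at H2-Ob the groups overlap.

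The nearest 2 tested genes on each side of each of the 10 genes made 25 neighbours, of which 2 rose, none fell and 23 did not pass, beside 2.34% of all genes called. H2-DMa was one. The other was Zfp72, a zinc finger protein gene before Erap1, with 6.99, 6.94 and 6.43 in VPA and 5.50, 5.68 and 5.58 in control arrays, a difference of 1.20 (SE 0.143, limma adjusted p = 0.00973), or 2.30-fold. Erap1 and Zfp72 thus lie near each other with differences of opposite sign. Without control replicate 1 the Zfp72 adjusted p was 0.0515 at a difference of 1.16, and it passed in the other 11 settings. None of the neighbours of Psmb10 or Tapbpl passed.

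The transcription factors and receptors known to act on these genes showed no call with the group as the sole term. Of 32 measured limma called none, beside 2.34% of all genes called, with 4 lower at an unadjusted p under 0.05 (8.3% of all genes) and a median difference of -0.06. Nfkb1 had no single-symbol probe set and is not analysed here. Irf1, which binds response elements in promoters of this pathway, had 8.67, 8.54 and 8.72 in VPA and 9.01, 8.86 and 9.07 in control arrays. Its groups did not overlap, and its difference was -0.34 (SE 0.094, limma adjusted p = 0.102). A second Irf1 probe set of lower level differed by -0.12 with overlapping groups. Irf9, the DNA-binding part of the complex that type I interferon activates and a neighbour of Psme2, had 9.19, 9.03 and 9.46 in VPA and 9.84, 9.47 and 9.76 in control arrays, a difference of -0.46 (SE 0.135, limma adjusted p = 0.113). Of the settings that left out 1 array, Irf9 passed in that without VPA replicate 3, at a limma adjusted p of 0.0435.

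Nlrc5, the transactivator of class I genes, had 19 single-symbol probe sets. That of highest level had 9.99, 9.77 and 10.12 in VPA and 10.22, 9.89 and 10.21 in control arrays, a difference of -0.15 (SE 0.124, limma adjusted p = 0.562). Over the 19 probe sets the differences ran from -0.15 to 0.36 with a median of 0.01, 7 below and 12 above 0, and in 1 of them the groups were apart.

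Genes that interferon-gamma induces outside the class I pathway included 3 that fell, none that rose and 19 that did not pass among 22 measured, beside 0.632% of all genes called lower, with a median difference of -0.17. They were Parp14 and Parp9, ADP-ribosyltransferase family members, at -0.82 (SE 0.173, limma adjusted p = 0.0455) and -0.74 (SE 0.159, limma adjusted p = 0.0484), and Irgm1, an immunity-related GTPase gene, at -0.79 (SE 0.164, limma adjusted p = 0.0432). These calls were known when the list was written and are no independent support for it. Leaving out VPA replicate 1 or 2 or control replicate 1 or 3 ended each of them, with limma adjusted p between 0.131 and 0.178, and a second quantile normalization ended that of Parp9, at 0.0518. At an unadjusted p under 0.05 limma had 7 of the 22 genes lower and 1 higher, against 8.3% and 9.82% of all genes.

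**Figure D4:**
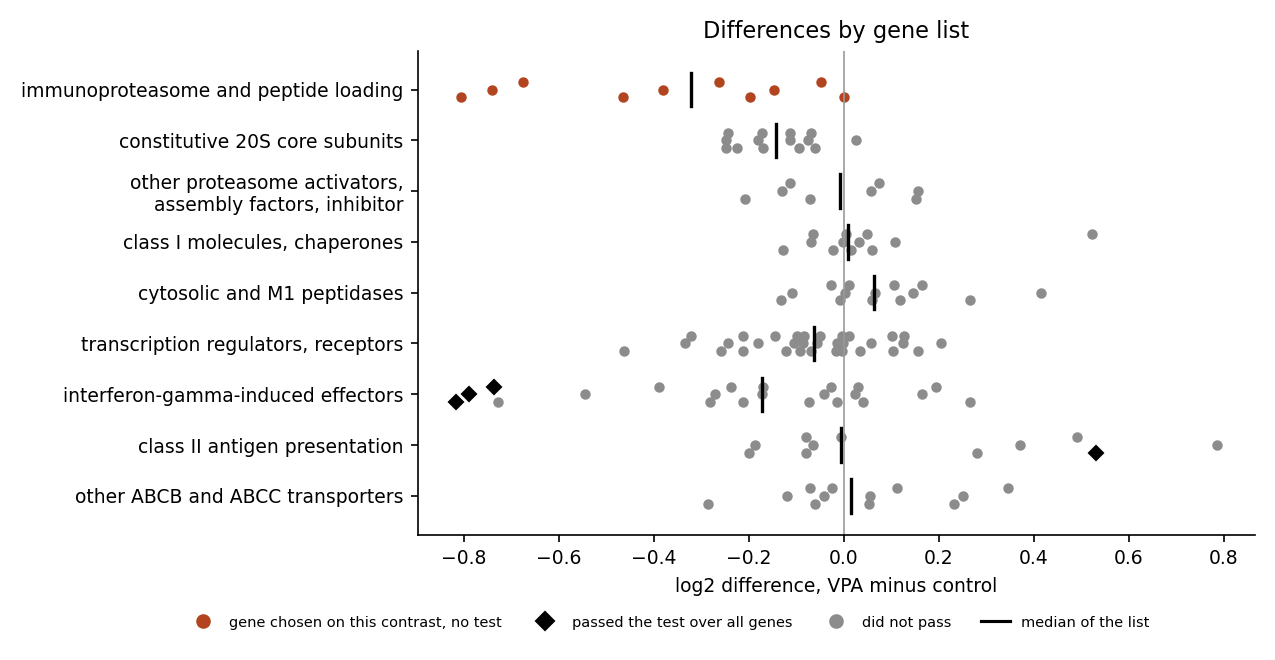
Log2 difference, VPA minus control (x axis), of each measured gene in the 10-gene set (orange, no test) and in 8 other lists, with diamonds for genes that passed the test over all genes and bars at list medians. The 10-gene set has its median at -0.32, the constitutive core at -0.14 and the interferon-gamma-induced effectors at -0.17, and the other medians lie between -0.06 and 0.06.

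Likeness was measured as Pearson's r over the 6 arrays, which form the 2 groups, so the difference between the groups enters it, and 202 genes had r of at least 0.95 with the mean of Erap1, Psmb10 and Tapbpl. The 5 most like that mean were Kmt5b, a histone H4 methyltransferase gene (r = 0.998), Zbtb22 (0.996), which lies before Tapbp on chromosome 17, Naaladl2 (0.993), Phf19, a Polycomb-associated gene (0.993), and Pcbp1, an RNA-binding protein gene (0.992). Their differences were -0.50, -0.21, -0.54, -0.64 and -0.33. For the mean of the other 7 genes 164 genes had r of at least 0.95, and the highest were Scube2 (0.998), P2ry14 (0.995), Numa1 (0.991), Wfdc10 (0.989) and Tmem42 (0.988).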

How the data were processed

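Total RNA extracted with Trizol and treated with DNase I was labelled with biotin and hybridised to Affymetrix mouse Gene 1.0 ST arrays, per the labels' protocols. The 3 VPA and 3 control samples were grouped by their titles. The deposited log2 values came from the authors' RMA run in Expression Console of Affymetrix, as the submitters' processing notes say, and no source used here states a version or genome build. RMA equalises probe intensities between arrays before it summarises them, the summarised values still differed slightly between arrays, and they carry no detection call, so low values cannot be told from background.

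Of 35556 probe sets, 21789 had exactly 1 symbol, 1621 had several and named no gene, and 12146 were not listed in the platform annotation. A RefSeq table (GRCm38.p6) matched 21698 of them by Entrez identifier and also gave the neighbours. The probe set with the highest mean represented each of 19938 genes, and no filter was set. VPA was compared with control with the moderated, two-sided test of limma 3.58.1 (lmFit, eBayes) under R 4.3.3, the group being the sole term, and Benjamini-Hochberg adjustment over all genes. A gene was called at an adjusted p under 0.05. The fit was tested on simulated data.

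The 10 genes and the 8 other lists were chosen with earlier results of these data known. Named besides the 10 were Psmb5, Psmb6, Psmb7, Psme3, B2m, Nlrc5 and Irf1, up to 3 called genes per direction of each list or, with none called, the 2 of smallest p, called neighbours, cell type markers and the 5 genes most like each mean. The alternatives were a second quantile normalization, a filter on low values (3 or more arrays at a log2 of 6 or more), median centring, a trended and robust prior, a replicate block, averaging the probe sets of each gene, and leaving out each array.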

Additional observations from a re-analysis of the deposited data

How the results depend on the processing

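Across the 12 alternatives the 10 genes kept a median difference between -0.41 and -0.22 (the second without VPA replicate 2), and 9 or 10 of them had a lower mean in VPA arrays. Counts of calls moved more. Over all genes 467 were called with all arrays, and between 20 and 815 when 1 array was left out, the lowest without control replicate 1 and the highest without VPA replicate 3. In the 8 other lists together 4 genes were called, 1 higher and 3 lower. Leaving out 1 array gave 0 to 8, with 0 to 3 higher and 0 to 5 lower, and 0 to 4 neighbours were called in place of 2. With low values filtered, and likewise with a trended and robust prior, 2 list genes were higher.

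Whether the replicate numbers pair the samples was not settled by these values. Deviations from the group means correlated at 0.0841, 0.451 and 0.284 for replicates 1, 2 and 3 over all genes. Each VPA replicate correlated best with the control of its own number. Control replicate 1, however, correlated better with VPA replicate 3, at 0.200, than with VPA replicate 1. With the replicate number as a block, 1199 genes were called, as were 11 list genes, 4 higher and 7 lower, and 4 neighbours. Some named genes were called under the block but not in the main fit (all 6 arrays, the group as the sole term, no alternative applied). They included Irf1 at -0.34 and Irf9 at -0.46 (limma adjusted p = 0.0458 and 0.0255), and Mr1 at 0.52 and Lta4h at 0.42 (0.0364 and 0.0267). H2-Ab1 at 0.78 was another (limma adjusted p = 0.0443 with the block). A test of the replicate number itself (limma's F test) called 73 genes, 46 with centred arrays and 126 with a trended and robust prior. Among the 10 genes it called 0, and 1, Tap1, had an unadjusted p under 0.05, beside 12.1% of all genes. Of the individual genes named, none changed sign together with a call.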
